A study of Homo sapiens with 14 samples.

Results

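The AP-1 genes FOS, FOSB, FOSL1, FOSL2, JUN, JUNB, JUND and ATF3 are 8 of the 20037 protein-coding genes whose spans were used, and they were chosen by name, as the family of AP-1 subunits. For each gene, peaks were taken from its span and 50 kb on either side, and peaks at the gene ends were kept apart from distal peaks. GLTSCR1, a subunit found only in the GBAF (non-canonical BAF) chromatin remodelling complex, and the SS18::SSX fusion oncoprotein, read through an HA tag, were mapped by ChIP-seq in HS-SY-II, 1 synovial sarcoma cell line labelled WT. The cells were given vehicle (DMSO) or WA-68, a degrader (PROTAC) of the GBAF subunit BRD9, at 100 nM. For GLTSCR1 there was 1 library each after DMSO and after 12, 24, 48 and 96 h with the degrader, and for the fusion 1 each after DMSO, 12, 24 and 48 h. The 5 input libraries were not analysed here.

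With 1 library per group, no comparison carried a test or a p-value, and differences between lists include any difference between single libraries. DMSO carries no time in the labels and was the only reference of each antibody, so time in culture and time of WA-68 cannot be told apart. Read depth is unknown from peak lists. A gene without a peak fell short of the calling threshold there, and its absence is not shown. The fold given for a region is the authors' enrichment of its strongest summit over local background. Folds are described within 1 list, where a region's percentile is the share of that list's regions with a fold no higher, and ranks in lists of different length show no change. The degradation of BRD9 was not measured by these files.

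AP-1 is a family of dimeric transcription factors built from basic leucine zipper proteins. Fos proteins pair with Jun proteins, Jun proteins also pair with each other, and ATF3 pairs with Jun proteins or with itself. Several members are immediate early genes, which are switched on within minutes of a growth or stress signal, and AP-1 acts at many enhancers together with BAF complexes.

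In DMSO, GLTSCR1 had its highest folds at FOS and JUND and lower ones around FOSB, FOSL2, JUNB and ATF3, and at 96 h regions beside FOSB and FOSL1 had higher folds than any at JUND. It lay only at neighbouring genes around FOSL1, and was not called within 50 kb of JUN in any of its 5 lists. The fusion was called near all 8 genes in at least 1 list, but its regions there mostly ranked in the lower part of their list. The AP-1 windows held 35, 30, 25, 25 and 29 GLTSCR1 regions in DMSO and at 12, 24, 48 and 96 h, in lists of 18037, 16021, 15330, 13677 and 15611 regions. They held 32, 27, 25 and 22 fusion regions in DMSO and at 12, 24 and 48 h, in lists of 24953, 28619, 24846 and 26405. Of the 144 GLTSCR1 regions over the 5 lists, 17 lay in the top 1% of their list by fold, 12 of them around FOS, 3 at JUND and 2 beside FOSB. A site is counted here once for each list, so these are repeat calls of a few sites. Among them, in all 5 lists, was the upstream FOS site that the choice of these genes already named. The highest percentile of any of the 106 fusion regions was 88.9, at FOSL1 at 12 h. The windows of 7, 7, 6, 7 and 7 of the 8 genes held a GLTSCR1 region in the 5 lists, against 61.5, 59.3, 49.1, 39.3 and 47.7% of all genes, and those of 7, 8, 7 and 7 held a fusion region in its 4 lists, against 43.5, 43.0, 40 and 41.7%. The median percentile of the regions was 61.7, 70.3, 54.2, 56.4 and 66.4 in the GLTSCR1 lists in time order, and 34.2, 30.8, 30.7 and 39.9 in the fusion lists.

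A gene counted as bound at its ends when a region came within 1 kb of either end of its span, which takes in downstream ends. GLTSCR1 was at the ends of 4 of the 8 AP-1 genes in DMSO, against 31.1% of all protein-coding genes, and in the 12 h list at 5 of 8, against 26.6%. At 24 h it was at 2 of 8, against 14.7% of all genes, at 48 h at 2 of 8, against 11.1%, and at 96 h at 3 of 8, against 15.2%. The fusion was at the ends of 5 of 8 in DMSO, against 19.3% of all genes, of 4 of 8 in the 12 h list, against 18.6%, of 6 of 8 in the 24 h list, against 16.6%, and of 4 of 8 in the 48 h list, against 18.6%. The GLTSCR1 counts of 24 and 48 h depended on the window and threshold, and were 4 and 5 with windows of 3 kb, against 18.7 and 14.5% of all genes. With a −log10 q of at least 5 they were 1 and 1 (12.5% each), against 12.4 and 9.15%, which at 24 h is about the share of all genes. JUND alone of the 8 had GLTSCR1 at its ends in all 5 lists, which 6.29% of all genes had. FOSL1 and JUNB had the fusion at their ends in all 4 lists, which 8.92% of all genes had. In DMSO, FOS, FOSL2, JUNB and JUND had both proteins at their ends, 4 of 8 against 12.9% of all genes.

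**Figure D1:**
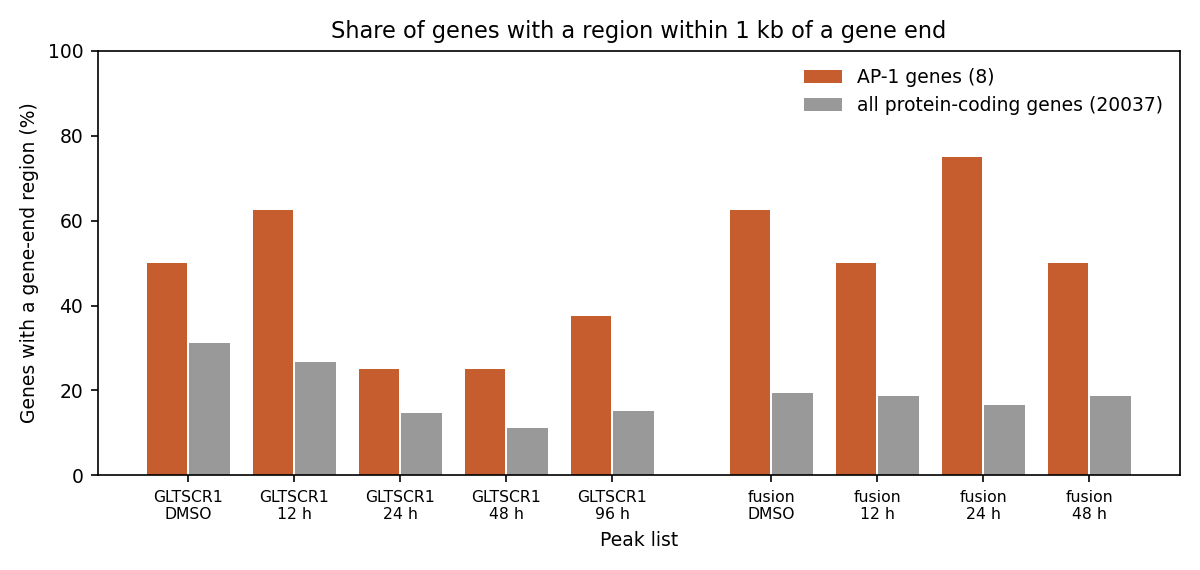
Share of genes (%) with a called region within 1 kb of either gene end in each of the 9 peak lists, for the 8 AP-1 genes and for all protein-coding genes. In GLTSCR1 DMSO, 4 of the 8 AP-1 genes were bound at an end, against 31.1% of all genes.

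**Figure D2:**
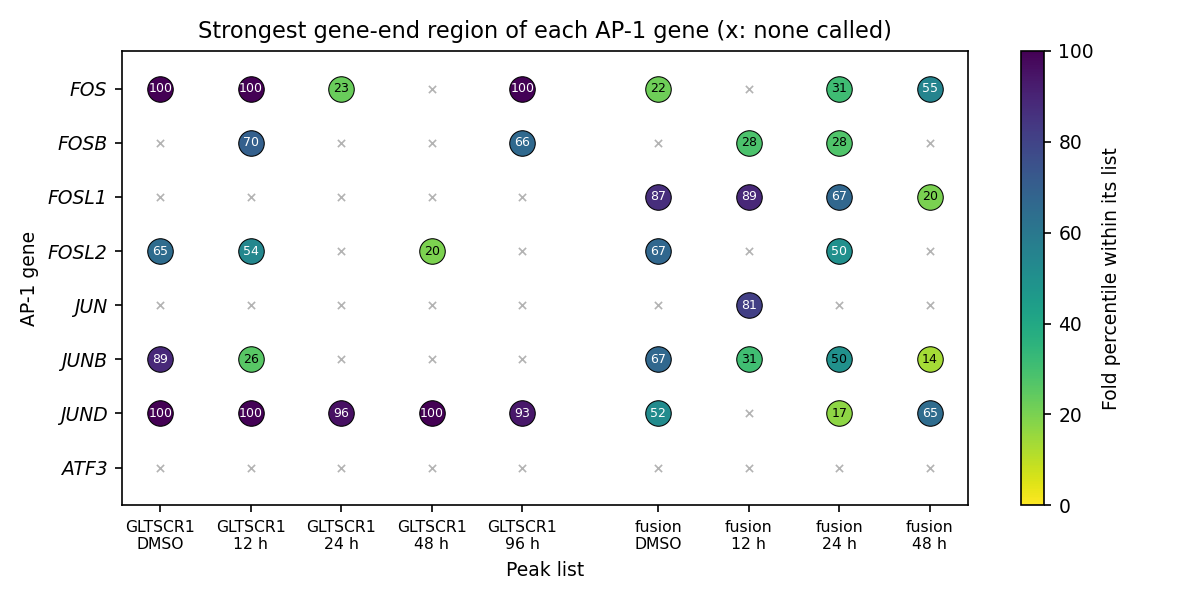
Strongest region within 1 kb of the ends of each AP-1 gene (rows) in each peak list (columns), shown as its fold percentile within the list. Small grey crosses mark cells without a called region. JUND has a GLTSCR1 region in all 5 lists, FOSL1 and JUNB have a fusion region in all 4, and ATF3 has none in any list.

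The promoter sequences of the 4 genes on whose start regions the results turn are printed next, from the RefSeq promoter table for GRCh38.p14. Each is the 250 bases just before the annotated start, 5′ to 3′ on the gene's own strand, and capitals mark a CRE (TGACGTCA) or a GC box (GGGCGG, or CCGCCC on the other strand).
JUND, chr19:18281623-18281872, minus strand: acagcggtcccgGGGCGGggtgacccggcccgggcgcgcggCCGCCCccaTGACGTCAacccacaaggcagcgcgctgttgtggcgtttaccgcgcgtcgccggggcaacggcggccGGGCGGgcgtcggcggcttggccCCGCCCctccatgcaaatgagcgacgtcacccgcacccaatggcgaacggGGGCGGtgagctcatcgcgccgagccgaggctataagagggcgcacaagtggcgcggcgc
FOS, chr14:75278578-75278827, plus strand: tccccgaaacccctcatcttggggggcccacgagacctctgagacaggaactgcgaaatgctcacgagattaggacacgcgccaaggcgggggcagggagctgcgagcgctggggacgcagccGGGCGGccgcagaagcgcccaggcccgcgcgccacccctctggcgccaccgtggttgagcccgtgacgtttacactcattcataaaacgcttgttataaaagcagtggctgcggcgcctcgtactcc
JUNB, chr19:12791236-12791485, plus strand: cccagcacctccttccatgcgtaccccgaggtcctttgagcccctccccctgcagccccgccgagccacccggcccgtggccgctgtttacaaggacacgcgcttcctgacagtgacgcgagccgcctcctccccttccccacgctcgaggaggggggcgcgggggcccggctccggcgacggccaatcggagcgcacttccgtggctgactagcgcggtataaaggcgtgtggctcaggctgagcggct
JUN, chr1:58784048-58784297, minus strand: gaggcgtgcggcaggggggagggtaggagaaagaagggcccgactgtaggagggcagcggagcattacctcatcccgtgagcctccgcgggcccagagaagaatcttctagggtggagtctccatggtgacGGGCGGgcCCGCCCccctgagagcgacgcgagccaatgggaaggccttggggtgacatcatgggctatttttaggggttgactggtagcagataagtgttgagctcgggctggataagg
Of the 8 genes, 7 had an entry in the table, and ATF3 had 2 starts, which gave 8 windows. No window held the letters of the AP-1 motif (TGAGTCA or its complement TGACTCA), which 4.20% of the 35116 windows in the table held. The CRE was in the JUND window alone, against 1.65% of all windows. The CArG box, the motif of serum response factor, was in none, against 1.16%. The windows reach only 250 bases upstream, and bases farther from the start, of FOS as of the others, were not searched. A GC box was in 6 of the 8, with 5 copies in JUND, against 42.6% of all windows. All motifs were sought as exact letters on both strands, and no 2 of the capitalised matches overlap. G and C made up 44.8 to 74.8% of the 8 windows, highest in JUND, with a median of 58.0% over all windows. Such matches describe letters only.

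FOS, the founding member of the family and an immediate early gene, had 3 GLTSCR1 sites, and each was called in all 5 lists. FOS spans chr14:75278828-75282230 and has no other protein-coding gene within 50 kb. Its farthest site, in the intergenic flank upstream at chr14:75258056-75260213, was the distal peak that the choice of these genes already named. Its fold was 39.9 (DMSO), 19.7 (12 h), 21.8 (24 h), 32.9 (48 h) and 61.3 (96 h). Those folds ranked 4, 76, 29, 6 and 2 in their lists. The strongest summits of the 5 lists fell within 28 bp of each other, between positions 75259220 and 75259248, about 19.6 kb before the start. No fusion region was called at that site in any of the 4 fusion lists.

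Just upstream of FOS, the strongest GLTSCR1 summit lay 1525 to 1593 bases before the start in all 5 lists, within 68 bp. The folds there were 27.6 (DMSO), 22.2 (12 h), 7.88 (24 h), 15.0 (48 h) and 19.4 (96 h), with percentiles of 99.8, 99.7, 89.4, 98.8 and 99.5. The region was high in every list, and its percentile was lowest at 24 h. Whether it counted as a gene-end region turned on its edge. In DMSO it ran to 211 bases from the gene, and at 48 h it stopped 1204 bases away, past the 1 kb limit. At 24 h the gene-end call came from a separate weaker region with a fold of 3.92. The fusion was called nearer to the start, with summits 177 to 565 bases upstream, at folds of 3.73 (DMSO), 4.06 (24 h) and 4.88 (48 h), and not at 12 h.

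The remaining FOS site lay downstream, 11.3 kb past the end of the gene at chr14:75293546-75296339. GLTSCR1 had folds there of 28.5 (DMSO), 19.0 (12 h), 15.8 (24 h), 8.11 (48 h) and 18.7 (96 h), with strongest summits within 61 bp. It was in the top 1% of all lists but the 48 h list, where its percentile was 89.0. The fusion was called there weakly, at 5.04 (DMSO), 3.37 (12 h) and 5.18 (48 h), and not at 24 h. At both FOS sites with both proteins, each fusion percentile was at or under 62.0.

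**Figure D3:**
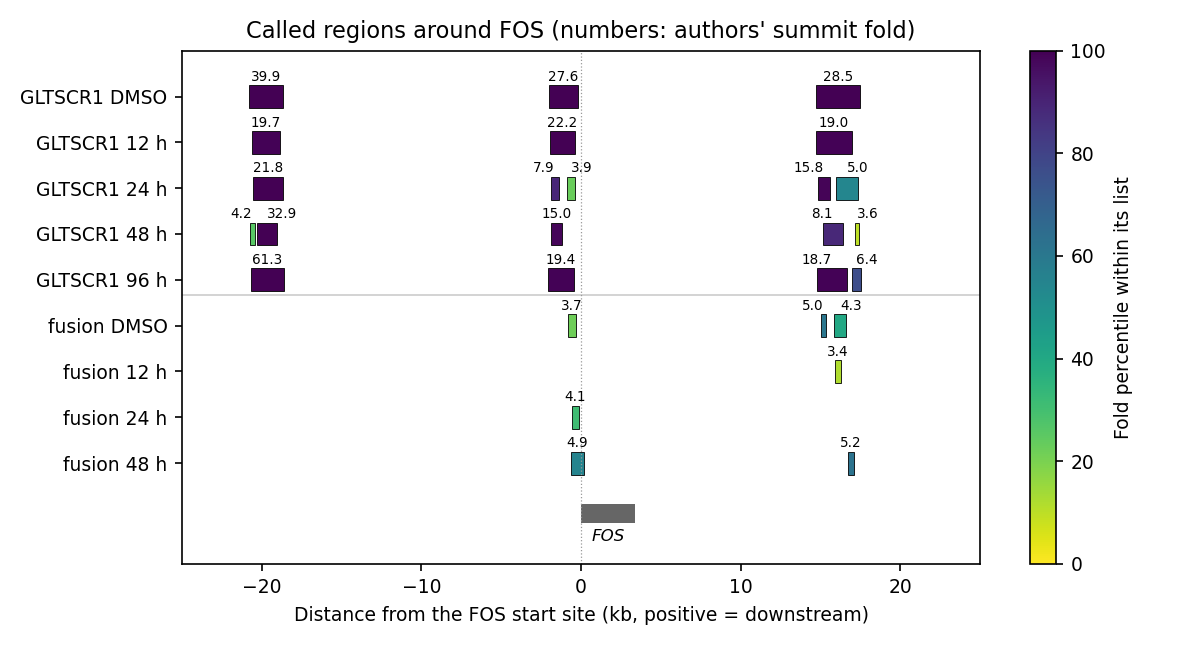
Called regions within 25 kb of the FOS start, by distance from the start (kb), in the 5 GLTSCR1 lists (upper rows) and the 4 fusion lists (lower rows); colour is the fold percentile within the list, numbers are the authors' folds and the grey box is the gene. The site about 19.6 kb upstream has GLTSCR1 in all 5 lists and the fusion in none.

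JUND, the Jun protein that is made in most resting cells, had the highest GLTSCR1 fold of the AP-1 gene ends in DMSO and at 24 and 48 h, and the FOS end had the highest at 12 and 96 h. Its span is chr19:18279694-18281622 on the minus strand. The fold over its start was 39.2 (DMSO), 20.3 (12 h), 10.3 (24 h), 24.0 (48 h) and 9.56 (96 h), with ranks of 6, 71, 605, 21 and 1028. It was in the top 1% of the DMSO, 12 h and 48 h lists, and its percentiles were 96.1 (24 h) and 93.4 (96 h). The summits lay 191, 186, 166, 172 and 195 bases upstream of the start in DMSO and at 12, 24, 48 and 96 h, within 29 bp. The CRE in the JUND sequence above occupies bases 200 to 193 upstream. The gap between summit and CRE was 2, 7, 27, 21 and 0 bp in the same order. The printed 250 bases were wholly inside the called region in all 5 GLTSCR1 lists. The fusion covered 91 of these bases in DMSO, 104 at 48 h and 0 at 12 and 24 h.

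At JUND's ends the strongest fusion fold was 4.70 (DMSO), 3.61 (24 h) and 5.36 (48 h), with no region at 12 h. A second JUND site, chr19:18290816-18293858, 9.19 kb before the gene and outside the span of any other protein-coding gene, was called in all 9 lists. GLTSCR1 had folds of 11.0, 7.06, 8.09, 7.14 and 8.89 there in DMSO and at 12, 24, 48 and 96 h. The strongest fusion folds there were 5.22, 4.20, 5.06 and 4.80 in time order from DMSO to 48 h. Both proteins were thus called at each time that both were mapped. A site at chr19:18251736-18252138, 27.6 kb past the other end and inside the spans of PDE4C and CIST1, had no GLTSCR1 region in DMSO or at 48 h, and had folds of 6.29 (12 h), 11.4 (24 h) and 8.60 (96 h), with summits within 45 bp. No fusion list held it. Beside LSM4, 40.9 kb and 41.6 kb before JUND, GLTSCR1 had folds of 5.52 and 5.08 (DMSO). The site at 41.6 kb also held the fusion (3.51) in DMSO and GLTSCR1 (3.36) at 24 h. The fusion also had DMSO folds of 3.86 and 3.60 at a pair of sites in PDE4C.

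**Figure D4:**
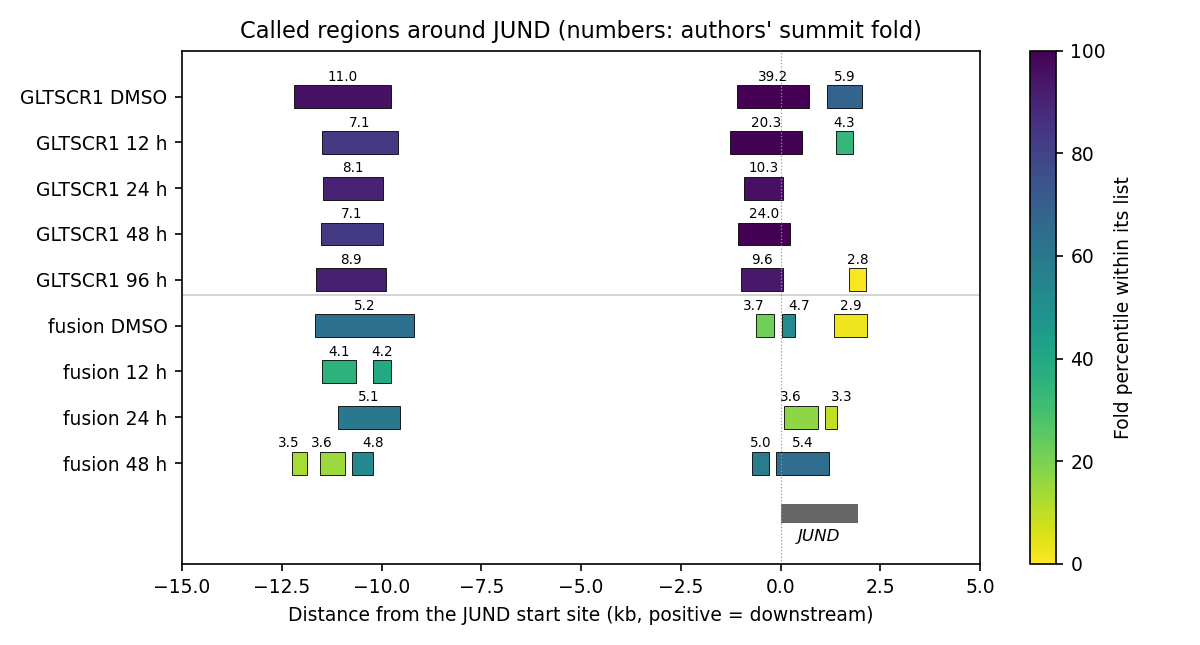
Called regions around JUND, by distance from its start (kb), in the 5 GLTSCR1 lists (upper rows) and the 4 fusion lists (lower rows); colour is the fold percentile within the list, numbers are the authors' folds and the grey box is the gene. The start has GLTSCR1 in all 5 lists, and the site about 10 kb upstream has both proteins at every time mapped.

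JUN, which encodes the prototype c-Jun, was the 1 AP-1 gene without any GLTSCR1 region in its window (chr1:58780791-58784047 and 50 kb either side), which held in all 5 lists. Of all protein-coding genes, 27.4% had none either. The nearest GLTSCR1 region lay 234 kb away in DMSO, 2266 kb at 12 h, 915 kb at 24 h, 2196 kb at 48 h and 2195 kb at 96 h. The fusion was called once, at 12 h, as a region of 431 bp over the start at chr1:58783692-58784122, with a fold of 6.43, a percentile of 81.4 and its summit 117 bases after the start. It took in 75 of the 250 bases printed for JUN, and the other 3 fusion lists had no region closer than 2198 kb.

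JUNB, a Jun protein that often opposes c-Jun, had both proteins at its start in DMSO. Its span is chr19:12791486-12793315, and an end of HOOK2 lies within 1 kb of its start region, so the region cannot be given to 1 gene. GLTSCR1 had folds of 5.35 (DMSO) and 4.08 (12 h) over the start, and no later list held it. The fusion was called over the start in DMSO (5.35), at 12 h (3.94) and at 48 h (3.28). At 24 h its region (4.65) began inside the gene, at position 12791668, with its summit 927 bases after the start. The fusion was thus called over the start at 48 h, and inside the gene near it at 24 h, without a GLTSCR1 call there. Upstream at chr19:12788448-12790574, also inside the span of HOOK2, GLTSCR1 was called in all 5 lists. Its folds there were 8.22, 5.75, 4.94, 4.80 and 4.11 in time order, and the fusion had 5.73 (DMSO), 3.74 (24 h) and 3.53 (48 h). Farther upstream, still inside HOOK2, GLTSCR1 had 8.19 (DMSO), 3.79 (12 h) and 4.06 (96 h) at 1 site, and 5.46 (DMSO), 4.58 (12 h), 2.96 (24 h) and 8.13 (96 h) at another. The last of these sites also held the fusion at 4.23 (DMSO) and 4.05 (24 h). At an end of MAST1, GLTSCR1 was called in DMSO (5.52) and, at an adjoining site, at 12 h (3.71). In DMSO alone, the fusion was called 41.5 kb before JUNB (4.15). Inside RTBDN, 39.1 kb past JUNB, the fusion had 3.95 (DMSO), 4.94 (12 h) and 3.74 (24 h), and GLTSCR1 had 4.42 (48 h). Just past the end of JUNB itself, at chr19:12793399-12794076, the fusion had 3.36 (24 h) and 3.09 (48 h).

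FOSB, a close relative of FOS, had its strong GLTSCR1 sites outside the gene, on the side of ERCC1, a DNA repair gene. FOSB spans chr19:45467996-45475179, and its strongest site, chr19:45450094-45452146, lay 15.9 kb upstream at an end of ERCC1. GLTSCR1 folds there were 15.6, 19.3, 11.3, 7.35 and 23.8 in time order from DMSO to 96 h, in the top 1% at 12 and 96 h. The fusion was called there at 3.79 (DMSO) and 3.84 (12 h) only. The next site, chr19:45443123-45444943 inside ERCC1, was called in all 9 lists. GLTSCR1 had 14.8, 10.7, 8.23, 10.6 and 13.4 there in time order, with summits within 60 bp, and the fusion had 4.44, 3.38, 4.78 and 4.57. Another ERCC1 site had GLTSCR1 at 8.07 (DMSO), 6.41 (24 h) and 4.06 (96 h), and the fusion at 4.29 (DMSO).

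At FOSB's own ends GLTSCR1 was called at 12 h (5.85) and 96 h (5.73), and the fusion at 12 h (3.84) and 24 h (3.94), with neither in DMSO. Inside the gene GLTSCR1 had 5.21 (DMSO), 5.45 (12 h) and 4.27 (96 h). A narrow site 3.74 kb past the end, chr19:45478919-45479234, had no DMSO region and GLTSCR1 folds of 5.96 (24 h), 4.75 (48 h) and 5.61 (96 h), with summits within 36 bp. A site at the start of the VASP span, 33.1 kb past FOSB, held the fusion in all 4 lists at 5.53, 4.10, 4.03 and 5.51, within 1 kb of the VASP end in all but the 12 h list. GLTSCR1 was called there at 3.74 (DMSO) and 3.87 (96 h). A site inside RTN2 held both proteins, the fusion at 4.39 (DMSO) and 4.71 (48 h) and GLTSCR1 at 4.22 (DMSO), 6.21 (48 h) and 4.50 (96 h).

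FOSL1, which encodes FRA-1, was the reverse case, with the fusion at its end in all 4 lists and GLTSCR1 at its ends in none. The fusion region, chr11:65899276-65900434, lies inside the span of FOSL1 (chr11:65892049-65900545) at its higher-coordinate end. Its folds were 7.47 (DMSO), 7.66 (12 h), 5.38 (24 h) and 3.75 (48 h), and its percentiles were 86.8, 88.9, 66.9 and 20.3. The summits fell within 197 bp. This was the strongest fusion region around the AP-1 genes in DMSO and at 12 h. At the other end, beside CCDC85B, the fusion was called at 24 h only (4.99). GLTSCR1 was called 30.9 kb away at the ends of CFL1 and MUS81, with strongest folds of 11.7 (DMSO), 9.29 (12 h), 5.95 (48 h) and 13.4 (96 h). In DMSO it was also at an end of EFEMP2 (4.68). At 12 h both proteins were called 18.1 kb away at the ends of C11orf68 and DRAP1, GLTSCR1 at 7.07 and the fusion at 5.21. The fusion was called there again at 48 h (4.41). At 24 h no GLTSCR1 region lay within 50 kb, and the nearest was 333 kb away.

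FOSL2, which encodes FRA-2, had all its regions within a few kilobases of its start, and no other protein-coding gene lies in its window. From upstream of the start to just inside the gene, at chr2:28389773-28393924, the strongest GLTSCR1 folds were 6.15 (DMSO), 5.43 (12 h), 4.81 (24 h) and 7.85 (48 h), and the 96 h list had none. Within the 1 kb limit, GLTSCR1 had 5.71 (DMSO), 5.05 (12 h) and 3.99 (48 h). The strongest fusion folds over the same stretch were 5.38, 2.97, 4.66 and 5.01 in time order from DMSO to 48 h. Farther into the span, at chr2:28396031-28397167, GLTSCR1 had 3.54 (DMSO), 4.47 (12 h), 5.07 (24 h) and 6.26 (96 h), and the fusion 4.02 (12 h). The strongest of all these regions was at the 87.5th percentile of its list.

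ATF3, a stress-induced bZIP factor, had neither protein within 1 kb of the ends of its span (chr1:212565407-212620777) in any of the 9 lists, and 10388 other genes likewise had none. It did have both proteins inside the span in every list. That site, chr1:212605271-212609976, starts 39.9 kb after the first annotated start and ends 5.04 kb before the second, and it was 4.71 kb wide over all lists. Only these 2 starts were used. Whether ATF3 has another start inside the site was not examined, so the site is not shown to lie away from a promoter. The strongest GLTSCR1 folds there were 7.13, 6.24, 4.70, 5.91 and 6.25 in time order, and the strongest fusion folds were 4.16, 5.35, 5.66 and 5.16. Its strongest GLTSCR1 summits were spread over 1403 bp, wider than the 28 to 68 bp of GLTSCR1 at the FOS sites. Wide GLTSCR1 spreads were not particular to ATF3. They were 1231 bp at an ERCC1 site 42.8 kb before FOSB, 975 bp at the FOSL2 start and 722 bp at the second JUND site. The strongest fusion summits of the ATF3 site were spread over 1821 bp, and those of the fusion near FOS over 388 bp upstream and 1644 bp downstream. Near the first start, 1313 bases into the gene, GLTSCR1 had 4.97 (DMSO) and 3.98 (48 h), and the fusion 3.94 (DMSO). A site 44.3 kb past the end had GLTSCR1 at 4.91 (DMSO), 3.85 (24 h), 4.55 (48 h) and 3.90 (96 h), and the fusion at 4.22 (DMSO) and 4.31 (48 h).

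The regions of all lists joined into 55 sites around the 8 genes. Gene ends took 10, the inside of a span 5 and the flanks 40, and 16 of the 45 distal sites lay at an end of another protein-coding gene. GLTSCR1 was called in all 5 lists at 9 sites and the fusion in all 4 at 7. Only 3 sites were in all 9 lists, the ERCC1 site beside FOSB, the site about 10 kb before JUND and the site inside ATF3. All 3 are distal as measured from the ends of the spans. Of the 55 sites, 29 had each protein in at least 1 list, 14 had GLTSCR1 only, 12 the fusion only, and 14 were in 1 list of the 9. The 29 include sites where the proteins were called only at different times, as at the CFL1 and MUS81 site near FOSL1, or in regions that did not overlap. Sites were joined around these genes only, so the counts of sites have no share of all sites beside them. A distal GLTSCR1 region was found for 7, 7, 6, 7 and 7 of the 8 genes in time order, against 51.3%, 50%, 43.8%, 35.2% and 42.4% of all genes. A distal fusion region was found for 6, 7, 6 and 7, against 38.2%, 38.1%, 35.6% and 36.7%. Distal regions numbered 28, 24, 23, 23 and 25 for GLTSCR1 and 24, 22, 16 and 15 for the fusion, and flanks of 25 kb left 18 in GLTSCR1 DMSO, 15 in fusion DMSO and 14 in the 12 h fusion list. At the 50 kb limit, the DMSO fusion region of JUND just inside it, 49.8 kb away, had a fold of 3.86, and the one just outside, at 51.9 kb, had 4.36. Around ATF3, fusion regions just outside the limit had folds of 4.37 (DMSO, 51.8 kb), 6.27 (12 h, 51.1 kb), 4.69 (24 h, 51.3 kb) and 6.93 (48 h, 51.2 kb), the last above any fusion region inside the AP-1 windows at 48 h, where the highest was 5.51.

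Of the 35 GLTSCR1 regions in the AP-1 windows in DMSO, 57.1% (exact Clopper-Pearson 95% interval 39.4 to 73.7) were overlapped by a 12 h region, against 55.8% of all GLTSCR1 regions. The share was 57.1% at 24 h against 47.6%, 48.6% (31.4 to 66.0) at 48 h against 43.2%, and 62.9% (44.9 to 78.5) at 96 h against 48.6%. Each interval held the value of all regions. Overlap in every later list was seen for 9 of the 35 (25.7%), against 26.7% of all regions. No later overlap was seen for 3 of the 35 (8.57%, 1.80 to 23.1), against 26.0%. Of the 35, 12 lay below the median fold of the DMSO list. In its top 1% lay 4, among them the upstream FOS site already named by the choice of genes. The part of fold in the shares of GLTSCR1 regions kept or gained was not tested. GLTSCR1 regions without a DMSO region made up 20.0, 8.0, 20.0 and 17.2% of the AP-1 regions at 12, 24, 48 and 96 h, against 30.6, 37.2, 32.8 and 36.2% of all regions. These intervals cover counting error only. Neighbouring regions are not independent, and no interval speaks of variation between cultures.

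The fusion regions of the AP-1 genes were found again less often than fusion regions at large at 12 and 48 h. Of the 32 in DMSO, 37.5% (21.1 to 56.3) were overlapped at 12 h, against 72.3% of all fusion regions, 53.1% (34.7 to 70.9) at 24 h, against 64.7%, and 40.6% (23.7 to 59.4) at 48 h, against 68.8%. The intervals lay below the value of all regions at 12 and 48 h and held it at 24 h. All 3 later lists overlapped 7 of the 32 (21.9%), against 50.8%, and none overlapped 10 of the 32 (31.3%), against 14.3%. Low fold moved with this result. In DMSO, 24 of the 32 lay below the median fold of the list, and of these 8, 11 and 7 were overlapped at 12, 24 and 48 h, against 58.8, 47.7 and 53.6% of all regions below the median. The part of low fold in the result was not tested. Fusion regions without a DMSO region made up 44.4, 32.0 and 31.8% of the AP-1 regions at 12, 24 and 48 h, against 36.1, 28.6 and 32.1%.

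Fusion regions near AP-1 genes met GLTSCR1 more often than fusion regions at large in DMSO and at 12 and 48 h. In DMSO, 26 of the 32 (81.3%, 63.6 to 92.8) overlapped a GLTSCR1 region, against 36.2% of all fusion regions. The share was 55.6% (35.3 to 74.5) at 12 h, against 24.2%, and 54.5% (32.2 to 75.6) at 48 h, against 25.3%, and at 24 h it was 28% (12.1 to 49.4), against 26.6%. The DMSO share fell with wider flanks, from 95.7% with 25 kb to 66.7% with 100 kb. In the other direction, 57.1% of the AP-1 GLTSCR1 regions overlapped the fusion in DMSO, against 59.3% of all GLTSCR1 regions. The shares at 12, 24 and 48 h were 46.7, 32.0 and 36.0%, against 55.2, 54.1 and 66.7%. The exact intervals at 24 h (14.9 to 53.5) and 48 h (18.0 to 57.5) lay below the values of all regions. Here, and for the fusion regions kept above, the intervals cover counting error only and take regions as independent. Several regions are parts of 1 site, such as the 4 DMSO fusion regions of FOSL2, so the intervals are likely too narrow.

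**Figure D5:**
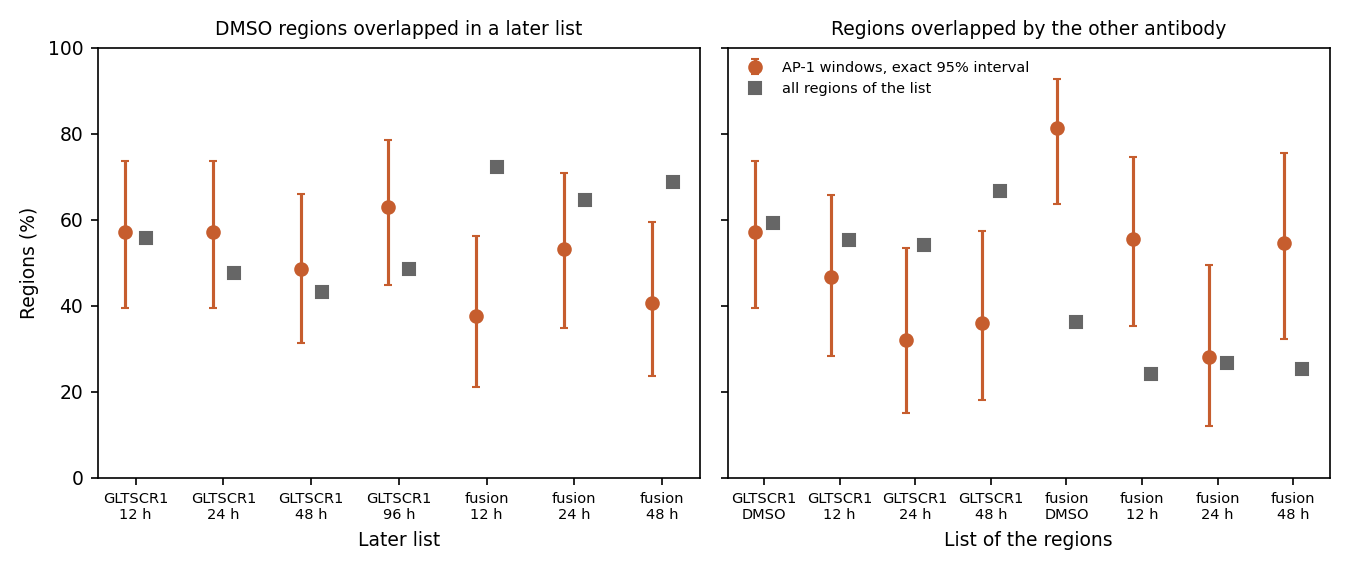
Left, share (%) of DMSO regions overlapped by a region of the same antibody in each later list; right, share (%) of each list's regions overlapped by the other antibody at the same time. Circles are regions in the AP-1 windows with exact 95% intervals of counting error and squares all regions of the list; in fusion DMSO the right-hand values are 81.3% and 36.2%.

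GLTSCR1 without the fusion, as at the upstream FOS site, was uncommon among strong GLTSCR1 regions. The top 1% of GLTSCR1 regions in DMSO numbered 181, and 19 of them (10.5%) had no fusion region in any of the 4 lists. Staying called was common among them, since 179 of the 181 (98.9%) were called in all 4 later lists. In being called in all 5 lists, the FOS and JUND regions were like nearly all GLTSCR1 regions of such fold.

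For each AP-1 gene bound at its ends in at least 5 lists, the genes of most like pattern were those with the lowest mean absolute difference in gene-end percentile over the 9 lists. For JUND these were ZFP36L1 (3.64 percentile points) and IPMK (6.04), and for FOS they were TAGLN2 (10.4) and PCIF1 (12.0). For JUNB they were TOLLIP (5.32) and SUMO3 (8.87), and for FOSL2 WDR90 (4.01) and RNF126 (4.92). The exact set of lists in which a gene was bound at its ends was shared with 39 other genes for JUND, 13 for FOS, 76 for JUNB, 0 for FOSL2, 434 for FOSL1, 256 for JUN and 1 for FOSB.

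A wider list of 39 genes of the pathway was read in the same way at gene ends. GLTSCR1 was at 16, 10, 3, 4 and 5 of the 39 in time order (41.0, 25.6, 7.69, 10.3 and 12.8%), against 31.1, 26.6, 14.7, 11.1 and 15.2% of all genes. Its share was thus above that of all genes in DMSO, near it at 12 and 48 h, and below it at 24 and 96 h. With windows of 500 bp it was 25.6% at 12 h, against 24%, and 10.3% at 48 h, against 9.34%. At 24 and 96 h those windows gave 2.56 and 10.3%, against 12.5 and 12.9%. The fusion was at 11, 9, 7 and 10 (28.2, 23.1, 17.9 and 25.6%), against 19.3, 18.6, 16.6 and 18.6%. The counts in the groups of 13 genes below are to be read beside the same shares of all genes. With windows of 3 kb, GLTSCR1 was at 14 of the 39 (35.9%) at 12 h, against 30.4% of all genes. At 24, 48 and 96 h those windows gave 7, 9 and 10 of the 39 (17.9, 23.1 and 25.6%), against 18.7, 14.5 and 19.1%. Neither protein was called at 19 of the 39 (48.7%) in any list, near the 51.8% of all genes whose ends had none. Among the 13 dimer partners and related bZIP factors, GLTSCR1 was at 6 in DMSO, led by CREB1 (5.26), CREM (5.12), BATF3 (4.90) and ATF2 (4.48), and at 3, 2, 2 and 1 later. CREM, a cyclic AMP responsive factor, was the 1 gene of the 39 (2.56%) with GLTSCR1 in all 5 lists, against 6.29% of all genes. The fusion lay at 5 of the 13 in DMSO-treated cells, led by MAF (12.2), BATF3 (9.54), MAFK (6.57) and CREB1 (3.42), and MAF, BATF3, MAFK and CREM, 4 of the 39 (10.3%), had it in all 4 lists, against 8.92% of all genes. Among the 13 upstream genes (kinases, the phosphatase DUSP1, SRF and ternary complex factors), GLTSCR1 was at 6 in DMSO, led by ELK4 (8.85), SRF (8.04), MAPK10 (5.86) and MAP2K7 (5.62), and at 6, 1, 1 and 3 later. SRF, which drives FOS through the CArG box, had GLTSCR1 also at 12 h (11.8), 48 h (4.25) and 96 h (5.14). The fusion was at MAPK10 (4.22) and ELK4 (2.996) in DMSO. Among the 13 textbook targets, GLTSCR1 was at 4 in DMSO, CCND1 (9.41), PLAUR (6.15), VEGFA (5.90) and HMOX1 (4.48), and at 1, 0, 1 and 1 later. The fusion was at PLAUR (5.10), CCND1 (4.65), IL6 (4.52) and VEGFA (4.06) in DMSO. CCND1 encodes cyclin D1 and PLAUR the urokinase receptor.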

How the data were processed

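HS-SY-II cells were profiled by ChIP-seq in 14 libraries, of which 9 had a peak list used here, 1 per group. Positions are on GRCh38 (hg38), and the tools were MACS2, BWA, cutadapt, Trim Galore, FastQC, bcl2fastq, Picard, SAMtools and deepTools, per the submitters' processing notes, which state neither version nor setting here. Peak names in the deposited lists show that each library was called apart. The deposited lists give a fold enrichment over local background (a linear ratio), −log10 p and −log10 q values and an integer score per peak, all computed by the authors; the lowest −log10 q was 3.0 in every list. A lower threshold or deeper reads would lengthen a list.

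From these, entries with the same coordinates were joined into 1 region with the values of its strongest summit, on chromosomes 1 to 22, X and Y. Gene spans and the 250-base promoters came from RefSeq (GRCh38.p14), and overlap meant 1 bp or more. Exact Clopper-Pearson 95% intervals were computed for shares (SciPy 1.17.1, pandas 2.3.3, NumPy 2.4.6, Matplotlib 3.10.9, Python 3.11.15). The search for overlaps was tested on simulated intervals, and the counting steps were not. Read depth is unknown, and no test was made.

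The AP-1 genes, the 39-gene list and the rules were chosen with earlier results of these data known. Named were all 8 genes, their gene-end sites in every list, up to 3 distal sites each by DMSO fold and antibody, distal sites called in at least 3 later lists and not in DMSO, up to 4 genes of each 13-gene group by DMSO fold and antibody, and the 2 genes of most like pattern for each AP-1 gene bound at its ends in 5 or more lists. Other sites were chosen after their values were seen. The alternatives were gene-end windows of 500 bp and 3 kb, flanks of 25 and 100 kb, −log10 q of at least 5, an overlap of 50% of the shorter region, summits within 250 bp, lists of equal length, other genes' ends left out, and start sites only.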

Additional observations from a re-analysis of the deposited data

How the results depend on the processing

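Of 216 recomputed values, 201 stayed within 1.5 times the reported count or within its interval, and 15 moved. The share of AP-1 genes bound at their ends was above that of all genes in 36 of 36 pairs of list and gene-end alternative, by the least for GLTSCR1 at 24 h with −log10 q of at least 5 (12.5% against 12.4%). With flanks of 25 kb, the distal regions fell to 18 for GLTSCR1 in DMSO (28 reported), 15 for the fusion in DMSO (24 reported) and 14 for the fusion at 12 h (22 reported), and 95.7% of DMSO fusion regions overlapped GLTSCR1 (81.3% reported). With flanks of 100 kb, the distal fusion regions in DMSO numbered 37. Without other genes' ends, the distal GLTSCR1 regions in DMSO numbered 18. With gene-end windows of 3 kb, GLTSCR1 was at 4 of the 8 AP-1 genes at 24 h and 5 at 48 h (2 reported at each), and at 7, 9 and 10 of the 39 wider genes at 24, 48 and 96 h (3, 4 and 5 reported); with windows of 500 bp it was at 1 of the 39 at 24 h. With −log10 q of at least 5, GLTSCR1 was at 1 of the 8 at 24 h and 1 at 48 h. With summits within 250 bp, 62.5% of DMSO fusion regions met GLTSCR1. Lists of equal length and an overlap of 50% moved no value they were run on, nor did start sites only, an alternative chosen after seeing the data. That last alternative left out FOSL1, which had no entry among the promoters. With it the fusion was at 4, 3, 5 and 3 genes in time order (5, 4, 6 and 4 reported). No cause was tested. No replicate could be left out, with 1 library per group. No paired analysis was possible because each group held 1 library and no result came from a test. Depth is unknown, so a region near the caller's threshold can be lost or gained with depth alone.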
